A study of Mus musculus with 2 samples.

Results

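The mitosis and cytokinesis genes described here are 38 named genes whose products drive chromosome condensation, spindle assembly, chromosome segregation and the division of the cell body. They were chosen by name, with earlier results of these data known. Each was found by its gene identifier, without version, among the 43346 mouse genes of both libraries. All 38 are annotated as protein-coding and they lie on 15 chromosomes. Of these, 32 were read in both libraries at 1 TPM or more (transcripts per 1000000, a level per transcript length), 4 were missed by one library, 1 fell under that minimum in one library, and Kif4 was listed at 0 counts in both.

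A cell enters mitosis when cyclin-dependent kinase 1, bound to a B-type cyclin, phosphorylates its many substrates. The chromosomal passenger complex and the spindle checkpoint then hold the chromosomes until all are attached, after which the anaphase promoting complex marks cyclin B and securin for destruction. The central spindle and a contractile ring finally separate the daughter cells. In the mouse heart, muscle cells still divide around birth and leave the cell cycle in the days that follow, with a last round in which nuclei often divide without cytokinesis. The stromal and vascular cells of the newborn heart divide as well.

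RNA sequencing was done on 2 libraries of whole heart from B6NCrl mouse pups at postnatal day 0. Pup 1 gave the heart for replicate 1 and pup 3 that for replicate 2, and each library was made from 13 pg of heart RNA longer than 200 nt, entered as 1 cell-equivalent. The series is titled single cell, whereas both samples are labelled as tissue. Sex was not collected, no treatment or altered genotype is named, and both hearts carry the same donor identifier. With 1 library per heart there is 1 group and no contrast to test, and the heart, the RNA aliquot and its amplification cannot be told apart as sources of a difference. Any SD is over n = 2 libraries.

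Expected counts on mouse genes summed to 39671930 in replicate 1 and 32751851 in replicate 2, and 8600 and 8854 mouse genes were read at 1 TPM or more. With 0 counts observed, up to 3 may have been missed, which is 0.0756 CPM (counts per 1000000) in replicate 1 and 0.0916 CPM in replicate 2 and covers counting error only. All 10 heart muscle markers were read in both libraries, with summed levels of 36013 TPM in replicate 1 and 46602 TPM in replicate 2. The 8 fibroblast markers summed to 1210 and 999 TPM and the 8 endothelial markers to 1478 and 1436 TPM. Smooth muscle and pericyte markers (6 of 7 read in both) summed to 89.6 and 101 TPM and macrophage markers (3 of 8) to 166 and 111 TPM. Erythroid markers (5 of 10) summed to 5668 and 5624 TPM. Of the 8 lymphocyte and neutrophil markers 5 were unread in both libraries, and the list summed to 72.7 and 125 TPM. The part of these cell types in the mitotic values below was not tested.

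Most of the 38 named genes were read in both libraries, whereas of 50 other mitosis genes 25 were. Replicate 1 read 34 of the 38 genes and replicate 2 read 35, and 32 were read in both, a share of 84.2%. The same share was 28.4% over all protein-coding genes and 15.3% over all mouse genes. The median of the mean levels was 41.9 TPM for the 38, 11.1 TPM for the other mitosis genes and 0.0156 TPM for protein-coding genes. Because the lists differ in level and were chosen with earlier results known, these shares are a description and not a trait of the class. Summed over the 38, the level was 2498 TPM in replicate 1 and 3045 TPM in replicate 2, or 0.250% and 0.305% of mouse gene TPM. In a bulk sample, fewer dividing cells and less RNA per dividing cell cannot be told apart, so these sums do not give a number of dividing cells.

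Each library failed to read a different pair of genes that the other read well. Replicate 1 held 1 count of Plk1 and none of Bub1, while replicate 2 held 1838 and 709 counts. Replicate 2 held 1 count of Incenp and none of Ect2, while replicate 1 held 1938 and 1273 counts. Among protein-coding genes read in replicate 2, 17.2% were missed by replicate 1, and 16.7% of those read in replicate 1 were missed by replicate 2. For all mouse genes these shares were 18.5% and 18.1%. Missed means under 3 expected counts in one library and 1 TPM or more in the other.

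The members missed were of low and middle level. At 10 to 30 TPM in replicate 1, replicate 2 missed 2 of 11 members, against 21.9% of protein-coding genes, and at 10 to 30 TPM in replicate 2, replicate 1 missed 1 of 6, against 22.7%. At 30 to 100 TPM, replicate 2 missed 0 of 12 (7.94% of genes) and replicate 1 missed 1 of 14 (7.55%), which was Plk1. At 100 TPM or more no member was missed, among 8 and 10 members, where 0.0855% and 0.248% of genes were. The few members at 1 to 10 TPM, 3 and 5, were also read in the other library at 3 counts or more, where 29.3% and 29.8% of genes were missed. With so few members in each range, none of these shares can be set apart from the background.

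**Figure D1:**
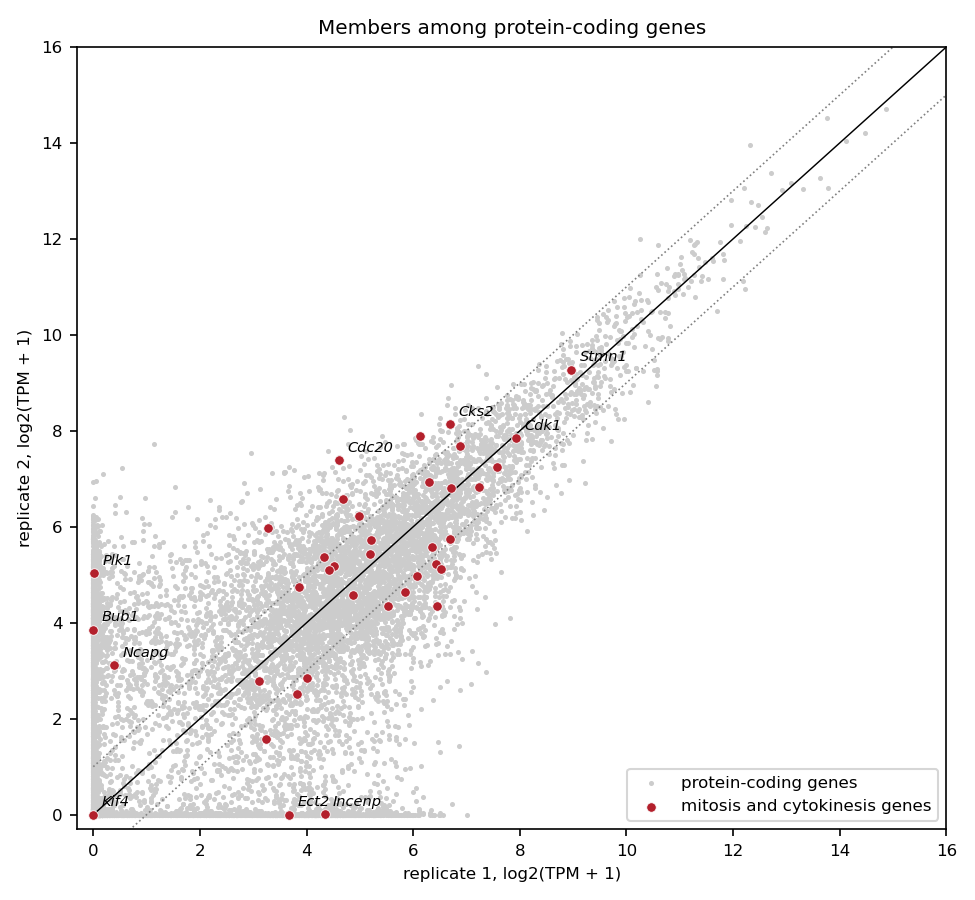
Level of every protein-coding gene (grey) and of the 38 mitosis and cytokinesis genes (red) as log2(TPM + 1) in replicate 1 and replicate 2; the solid line is equality and the dotted lines lie 2-fold apart. Plk1 and Bub1 sit on the left edge with 0.0104 and 0 TPM in replicate 1, Incenp and Ect2 on the lower edge with 0.0102 and 0 TPM in replicate 2, and Stmn1 is the highest member in both.

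Pooled over all levels from a mean of 5 TPM up, the members differed between the hearts about as often as other genes. Among the 36 members averaging at least 5 TPM, 20 (55.6%) lay over 2-fold apart on the log2(TPM + 1) scale, against 54.5% of protein-coding genes and 54.6% of all mouse genes at such a level. Higher in replicate 2 by over 2-fold were 9 members, against 27.8% of protein-coding genes and 27.7% of all. Higher in replicate 1 by over 2-fold were 11 members, against 26.8% and 26.9%. The median log2 ratio, replicate 2 minus replicate 1, was 0.00 for the members and 0.01 for all genes of that level.

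The spread depended on the level, and within each range the shares of members and of genes were less alike than when pooled. At a mean of 5 to 30 TPM, 8 of 13 members were over 2-fold apart (68.8% of protein-coding genes), at 30 to 100 TPM 10 of 15 (42.8%), and at 100 TPM or more 2 of 8 (19.3%). Ordered by mean level, 1 of the 35 neighbouring pairs differed by more than the larger SD of the pair, namely Stmn1 over Cdk1. The order of the others is therefore not resolved between neighbours.

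**Figure D2:**
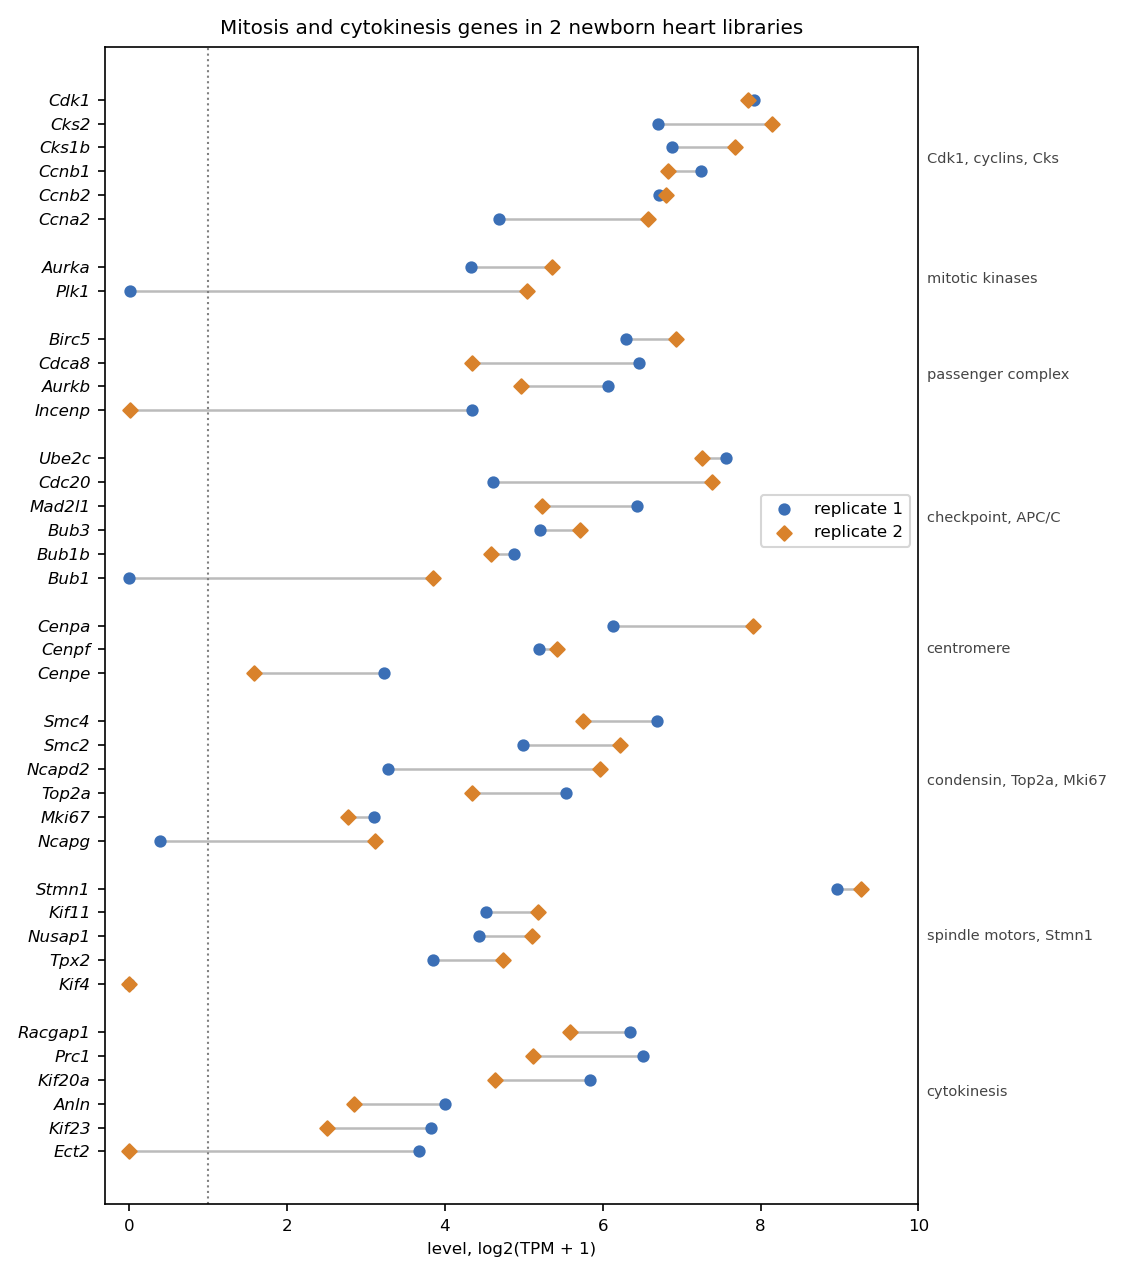
Level of each of the 38 genes as log2(TPM + 1) in replicate 1 (circles) and replicate 2 (diamonds), joined by a line and grouped by role; the dotted line is the 1 TPM minimum. Cdk1 and Ccnb2 nearly coincide between the hearts, Plk1, Bub1, Incenp and Ect2 reach from near 0 to well above the minimum, and every cytokinesis gene is lower in replicate 2.

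Promoter windows are shown because genes of this class are known to share a pair of sequence elements near their start, the cell cycle genes homology region (CHR) and the CCAAT box bound by NF-Y. RefSeq windows on GRCm38.p6, from 250 bases before to 50 after each start, were at hand for 31 of the 38 members and for 27025 genes in all. They are not shown for Ccna2, Stmn1, Smc4, Aurkb, Tpx2, Kif20a and Incenp. Both strands were searched for TTTGAA and for TTTAAA, which is its own reverse complement. Both were also searched for CCAAT. On the other strand this box reads ATTGG. The motifs can overlap one another and a match is a description of letters, not a bound site.

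TTTGAA stood in the window of 24 of 31 members (77.4%) and of 20.2% of all genes. Within 100 bases before to 50 after the start it stood in 23 members (74.2%) and 9.23% of genes, a range chosen after the positions had been seen. TTTAAA was less common, in 7 members (22.6%) against 14.9% of genes. At least 1 CCAAT was present in 27 members (87.1%) against 41.1%, and 2 or more in 18 (58.1%) against 13.3%. TTTGAA together with CCAAT occurred in 23 members (74.2%) and in 7.97% of genes. Mad2l1 and Nusap1 had none of the 3 motifs, as did 41.8% of all genes.

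The stretches below run 5′ to 3′ on the gene's strand, from 100 bases before the RefSeq start to 30 after it, with every match of the 3 motifs in capitals. Cdk1 (chr10:69352883-69353012, minus strand), Ccnb1 (chr13:100786457-100786586, minus) and Ccnb2 (chr9:70421525-70421654, minus) are shown as members close in both hearts. Cdc20 (chr4:118437314-118437443, minus) and Plk1 (chr7:122159335-122159464, plus) are shown as members far apart, and Racgap1 (chr15:99651627-99651756, minus), Prc1 (chr7:80294351-80294480, plus) and Kif23 (chr9:61946770-61946899, minus) as cytokinesis members that were all lower in replicate 2. Kif4 (chrX:100625965-100626094, plus) is shown as the member listed at 0 counts in both libraries.
Cdk1: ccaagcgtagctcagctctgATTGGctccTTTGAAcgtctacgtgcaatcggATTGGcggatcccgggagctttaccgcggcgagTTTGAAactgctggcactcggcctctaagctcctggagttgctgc
Ccnb1: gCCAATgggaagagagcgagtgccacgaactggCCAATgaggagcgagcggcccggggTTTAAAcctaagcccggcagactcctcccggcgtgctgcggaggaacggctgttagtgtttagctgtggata
Ccnb2: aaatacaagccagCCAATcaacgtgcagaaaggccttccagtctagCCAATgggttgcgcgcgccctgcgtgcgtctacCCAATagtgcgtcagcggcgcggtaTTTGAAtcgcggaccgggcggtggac
Cdc20: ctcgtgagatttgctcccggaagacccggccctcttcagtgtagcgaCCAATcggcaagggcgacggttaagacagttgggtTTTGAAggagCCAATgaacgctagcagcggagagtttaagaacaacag
Plk1: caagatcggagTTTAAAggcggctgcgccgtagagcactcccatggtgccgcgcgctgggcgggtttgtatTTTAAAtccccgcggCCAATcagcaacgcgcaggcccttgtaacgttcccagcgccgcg
Racgap1: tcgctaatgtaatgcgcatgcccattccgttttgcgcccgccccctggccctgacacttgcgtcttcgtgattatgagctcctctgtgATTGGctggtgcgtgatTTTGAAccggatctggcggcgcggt
Prc1: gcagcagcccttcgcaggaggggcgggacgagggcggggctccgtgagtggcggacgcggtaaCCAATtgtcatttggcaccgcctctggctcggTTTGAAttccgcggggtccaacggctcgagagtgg
Kif23: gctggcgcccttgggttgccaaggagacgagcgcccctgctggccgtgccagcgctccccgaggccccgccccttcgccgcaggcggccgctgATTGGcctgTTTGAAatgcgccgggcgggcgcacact
Kif4: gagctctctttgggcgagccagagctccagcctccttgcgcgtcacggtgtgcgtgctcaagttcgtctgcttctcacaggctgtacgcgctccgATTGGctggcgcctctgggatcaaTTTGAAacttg

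In Cdk1, TTTGAA began at 71 and 15 bases before the start, and the matches ATTGG lay 80 and 48 bases before it. Ccnb2 carried 3 CCAAT boxes in a row and a TTTGAA 5 bases into the transcript, while Ccnb1 carried TTTAAA 42 bases before the start in place of TTTGAA. In Prc1, Kif23 and Racgap1, TTTGAA lay within 6 bases of the start and 1 CCAAT lay upstream of it. Kif4, listed at 0 counts, held both elements, and Cdc20 and Plk1, far apart between the hearts, held them as well, with TTTAAA shown for Plk1 and its TTTGAA beginning 31 bases after the start, just past the printed stretch.

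The kinase that starts mitosis and its B-type cyclins were among the steadiest members. Cdk1, the kinase itself, stood at 241.6 TPM in replicate 1 and at 228.3 TPM in replicate 2 (mean 235 ± 9.44), rank 571 and 600 among all mouse genes. Ccnb2, a B-type cyclin, stood at 104 and 111 TPM (107 ± 4.85). Ccnb1, the main mitotic cyclin, stood at 150 and 113 TPM (132 ± 26.6). The log2 ratios of these 3 genes were -0.08, 0.09 and -0.41, all well within 2-fold.

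Cyclin A2 and the Cks subunits differed more. Ccna2, the cyclin that acts from S phase into early mitosis, stood at 24.8 TPM in replicate 1 and at 94.3 TPM in replicate 2, a log2 ratio of 1.89. Cks2, a small subunit that docks the kinase on phosphorylated substrates, stood at 103 and 281 TPM (1.44), and its relative Cks1b at 116 and 204 TPM (0.81). All 3 were higher in replicate 2, the first pair by over 2-fold. The 6 genes of this role summed to 740 and 1031 TPM, the largest sum of the 8 roles in each library.

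Plk1 and Aurka, the kinases not placed in another role here, were both higher in replicate 2. Plk1, polo-like kinase 1, which acts at centrosomes, kinetochores and the midzone, stood at 0.0104 TPM in replicate 1 and at 31.9 TPM in replicate 2. By CPM the ratio was 2226 with an exact 95% interval of 399 to 87983, set by the single count in replicate 1 and covering counting error only. Aurka, Aurora kinase A of the centrosome and spindle poles, stood at 19.1 and 40.1 TPM, a log2 ratio of 1.03, just past 2-fold, which was 0.99 with edgeR and 0.96 with DESeq2 scaling and so no longer past it. Tpx2, which activates Aurora A on the spindle, stood at 13.5 and 25.7 TPM (0.88).

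Subunits of the chromosomal passenger complex did not keep step. Incenp, its scaffold, stood at 19.2 TPM in replicate 1 and at 0.0102 TPM in replicate 2, and by CPM the ratio was 1599.9 in favour of replicate 1, with an exact interval of 287 to 63227. Cdca8, borealin, stood at 86.7 and 19.3 TPM (-2.11), and Aurkb, the kinase of the complex, at 66.0 and 30.3 TPM (-1.10). Birc5, survivin, went the other way with 77.3 and 121 TPM (0.64). Thus 3 of the 4 were over 2-fold higher in replicate 1 and 1 was within 2-fold. In replicate 1 Birc5 and Cdca8 stood within 2-fold of each other, whereas in replicate 2 Birc5 was 2.58 higher on the log2 scale.

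The spindle checkpoint kinase Bub1 was missed by replicate 1, with 0 TPM against 13.4 TPM in replicate 2. Against the floor of 3 counts in that library, it was at least 286-fold higher in replicate 2 by CPM. Bub1b, which with Mad2 inhibits the anaphase promoting complex, stood at 28.3 and 23.0 TPM (-0.29), and Bub3, which recruits both Bub1 and Bub1b to kinetochores, at 35.8 and 51.6 TPM (0.52). Of the checkpoint proteins that bind to one another, then, 2 were steady and 1 was read in 1 heart.

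Mad2l1, the Mad2 protein that captures Cdc20, was higher in replicate 1, at 85.2 and 36.5 TPM (-1.20). Cdc20, the activator of the anaphase promoting complex, was higher in replicate 2, at 23.4 and 166 TPM (2.77). Inhibitor and target therefore changed order: Mad2l1 exceeded Cdc20 by 1.82 on the log2 scale in replicate 1, and in replicate 2 the ratio was -2.16. Ube2c, the ubiquitin-conjugating enzyme of the complex, stood at 188 and 152 TPM (-0.31), within 2-fold.

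At the centromere, Cenpa, the histone H3 variant that marks it, stood at 69.1 TPM in replicate 1 and at 238 TPM in replicate 2 (1.77). Cenpf, a large protein of the outer kinetochore, stood at 35.6 and 42.0 TPM (0.23). Cenpe, the kinesin that moves chromosomes to the spindle equator, stood at 8.41 and 1.98 TPM (-1.66). Over all transcripts 1 gene was higher in each heart by over 2-fold and 1 lay within it. On protein-coding transcripts alone Cenpa lay within 2-fold (0.43) and the ratio of Cenpf was -0.41, although its longest coding transcript was higher in replicate 2.

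Condensin folds chromosomes with an ATPase core of Smc2 and Smc4 and further subunits that include Ncapd2 and Ncapg. Smc2 stood at 30.7 and 73.7 TPM (1.24) and its partner Smc4 at 102 and 52.9 TPM (-0.93), and the core subunits changed order between the hearts. Ncapd2 stood at 8.71 and 61.5 TPM (2.69). Ncapg was at 0.31 TPM with 36 counts in replicate 1, under the minimum, and at 7.69 TPM with 758 counts in replicate 2. Both non-SMC subunits were higher in replicate 2, and the size of the Ncapd2 difference depended on the unit and on its transcripts, with a log2 ratio of 1.18 by CPM and 0.39 on protein-coding transcripts alone.

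Top2a, the topoisomerase that untangles sister chromatids, stood at 45.3 TPM in replicate 1 and at 19.4 TPM in replicate 2 (-1.18). Mki67, the Ki-67 protein that coats mitotic chromosomes and is widely used as a marker of cycling cells, was low in both, at 7.57 and 5.87 TPM (-0.32). Mki67 had 2441 and 1603 counts on a transcript of 10075 nt. Per length it was thus among the lowest members, and it was read in both hearts within 2-fold.

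The 4 spindle genes with reads were higher in replicate 2, and none by over 2-fold. Stmn1, stathmin, which binds tubulin and destabilises microtubules, was the highest member at 498 and 617 TPM (558 ± 84.0, log2 ratio 0.31), rank 315 and 232. It is not confined to dividing cells. Kif11, the kinesin that pushes spindle poles apart, stood at 22.0 and 35.1 TPM (0.65), and Nusap1, which bundles spindle microtubules near chromosomes, at 20.5 and 33.4 TPM (0.67). Kif4, a chromosome-bound kinesin that also shortens central spindle microtubules, was listed at 0 expected counts in both libraries. By counting alone this allows up to 3 counts in each, and whether the gene model or the assignment of reads gave the 0 was not tested.

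Central spindle and cytokinesis genes leaned to replicate 1. All 6 were lower in replicate 2, 5 of them by over 2-fold, with a median log2 ratio of -1.26 and summed levels of 267 TPM in replicate 1 and 116 TPM in replicate 2. Among protein-coding genes averaging at least 5 TPM, 49.7% were higher in replicate 1 by any amount and 26.8% by over 2-fold (49.8% and 26.9% of all mouse genes). The roles were looked at after their values could be seen and there are 8 of them, so this lean is a description of 2 libraries and carries no test.

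Prc1, which crosslinks antiparallel microtubules of the midzone, stood at 90.5 TPM in replicate 1 and at 33.8 TPM in replicate 2 (-1.39). Kif20a, the kinesin that brings the passenger complex to the midzone, stood at 56.4 and 23.9 TPM (-1.20). Anln, anillin, a scaffold of the contractile ring, stood at 15.0 and 6.21 TPM (-1.15). These 3 genes were lower in replicate 2 to a similar extent.

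Kif23 and Racgap1 together form centralspindlin. Kif23 stood at 13.1 and 4.69 TPM (-1.31) and Racgap1 at 80.6 and 47.1 TPM (-0.76), the one member of the group within 2-fold. Ect2, the exchange factor that centralspindlin recruits to activate RhoA at the cell equator, stood at 11.8 TPM in replicate 1 and at 0 TPM in replicate 2. By CPM it was at least 350.3-fold lower in replicate 2, against the floor of 3 counts in that library. All 6 remained lower in replicate 2, and 5 of them by over 2-fold, when CPM, edgeR or DESeq2 scaling, another pseudocount or protein-coding transcripts alone were used.

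**Figure D3:**
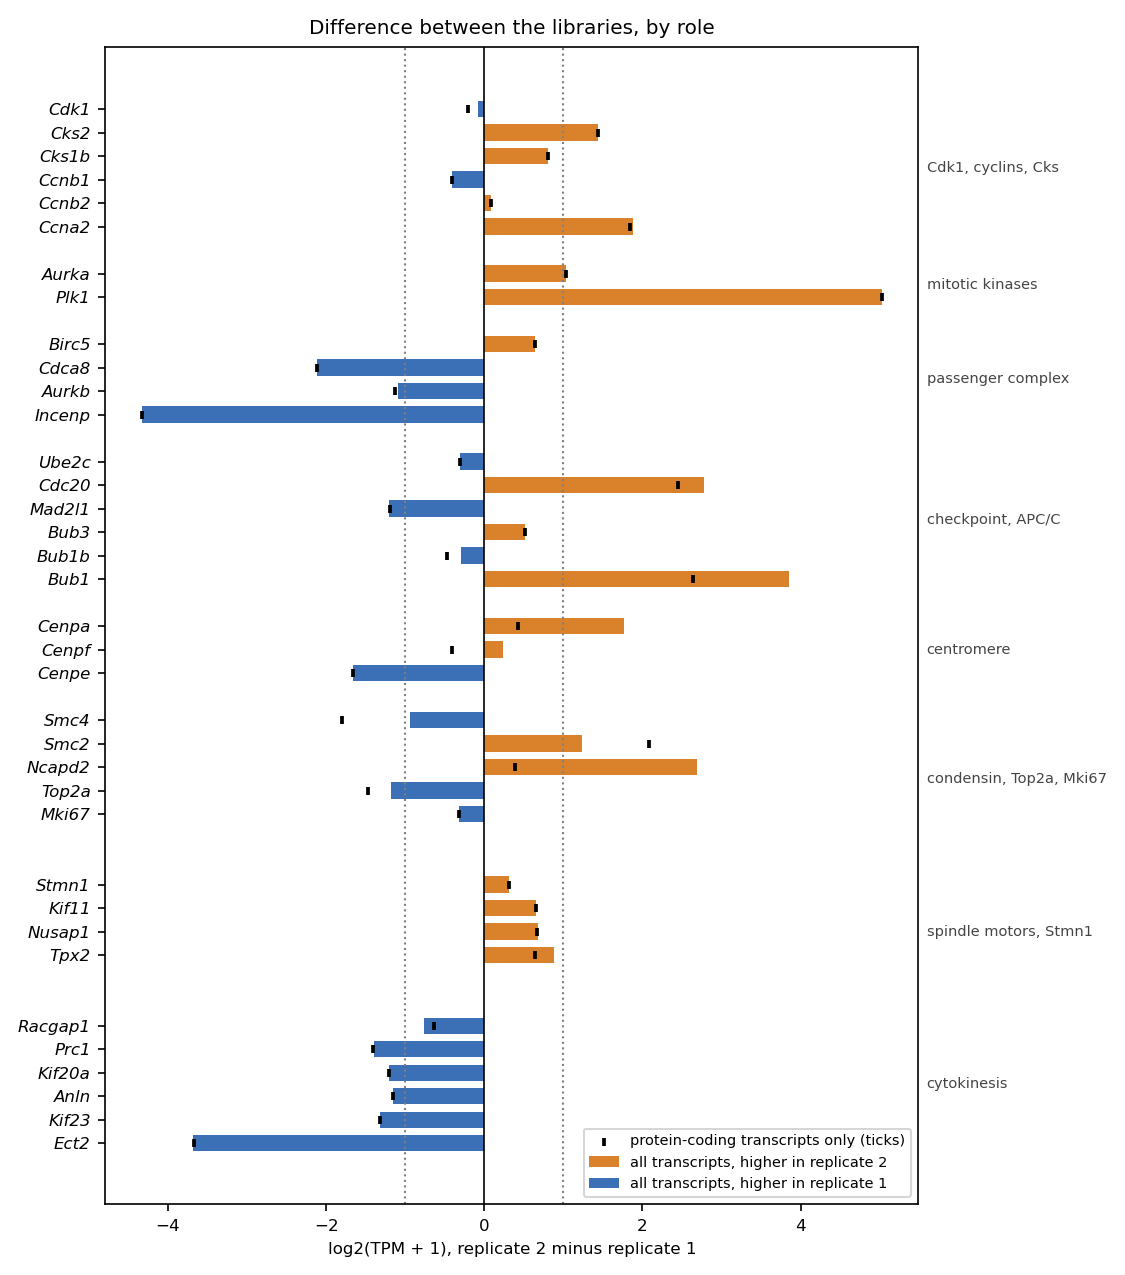
Difference in log2(TPM + 1), replicate 2 minus replicate 1, for the 36 members averaging at least 5 TPM, grouped by role, with dotted lines at 2-fold; bars use all transcripts and black ticks protein-coding transcripts alone. All 6 cytokinesis bars point to replicate 1, the 4 spindle bars to replicate 2 within 2-fold, and the ticks of Ncapd2 and Cenpa fall inside 2-fold while their bars do not.

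Pairs of related members gave ratios within a library, which depend on no scaling between libraries. Of 19 such pairs 13 had 1 sign in both hearts, and 6 of these had a mean beyond 2 SD. No such share over other gene pairs is at hand, so these counts describe the listed pairs alone. Racgap1 exceeded its partner Kif23 by 2.80 ± 0.39 on the log2(TPM + 1) scale, and Ect2, which was at 0 in replicate 2, by 4.13 ± 2.06. Ncapd2 exceeded Ncapg by 2.87 ± 0.03 over all transcripts, but by protein-coding transcripts alone the ratios were 2.68 and 0.16. Top2a exceeded Mki67 by 2.00 ± 0.61. Cenpf exceeded Cenpe by 2.91 ± 1.34. Cdk1 exceeded Ccnb1 by 0.84 ± 0.23 over all transcripts, but by protein-coding transcripts alone the mean was -0.10, so the order of kinase and cyclin depends on which transcripts are counted.

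Other pairs changed order. Aurkb exceeded Aurka by 1.74 in replicate 1, with -0.39 in replicate 2. Ube2c exceeded Cdc20 by 2.95 in replicate 1, and in replicate 2 the ratio was -0.13, which on protein-coding transcripts was 0.25, with no change of order. Smc4 exceeded Smc2 by 1.70 in replicate 1, with -0.47 in replicate 2. Ccnb1 and Ccnb2 stayed close, with 0.53 and 0.03.

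A gene's TPM sums over its transcripts, and short non-coding transcripts weigh heavily in it. Of the 38 members 10 have 1 listed transcript. Of 25 members with several and with counts in both libraries, 17 kept the same leading transcript by share of TPM. The same share over all genes is not at hand. The transcript split is the estimate of the authors' quantifier and was not checked against reads.

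For Cdk1, the protein-coding transcripts held 54.0% and 49.4% of TPM but 80.0% and 77.5% of counts. The rest lay mostly on Cdk1-204 and Cdk1-203, short retained-intron transcripts of 475 and 378 nt. Its coding level alone was 131 and 113 TPM. The near equality of the hearts therefore held for the coding level as well, at a lower height.

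Ncapd2 lost its difference. Its protein-coding share of TPM was 73.3% in replicate 1 and 14.1% in replicate 2, where retained-intron transcripts led, with Ncapd2-208 (480 nt) at 37.3%. On protein-coding transcripts alone the log2 ratio was 0.39 in place of 2.69, with 6.39 and 8.68 TPM. For Cenpa the share was 59.3% and 23.3%, with Cenpa-202, annotated as subject to nonsense-mediated decay, leading in replicate 2, and the coding ratio was 0.43 in place of 1.77. The over 2-fold differences of both genes thus lay on transcripts not annotated to give the full protein.

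The condensin core also had part of its TPM on such transcripts, but its differences remained on those annotated as protein-coding. Protein-coding transcripts held 27.6% and 53.3% of the TPM of Smc2 and 61.5% and 32.7% of that of Smc4. On them the log2 ratios were 2.09 and -1.80, further apart than over all transcripts. The coding level of Smc4 lay mostly on Smc4-206 (59.1 and 15.61 TPM), of 1163 nt, whereas its longest coding transcript has 4316 nt. Its ratio is therefore mainly that of a short transcript. Most counts of any Smc4 transcript, 3384 and 1760, lay on Smc4-207 (4057 nt), annotated as subject to nonsense-mediated decay. Bub1 in replicate 2 had 38.8% of TPM, but 66.9% of counts, on its coding transcript, the rest on the retained-intron Bub1-202. Cenpf went from 0.23 to -0.41, the one member among the 36 whose sign turned on coding transcripts. By coding transcripts 19 members were over 2-fold apart, 7 higher in replicate 2 and 12 in replicate 1, and the median was -0.26. The same values over all genes are not at hand for coding transcripts.

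Some members had another leading coding transcript in each heart. Tpx2 was on Tpx2-207 in replicate 1 (98.8% of TPM) and on Tpx2-202 in replicate 2 (76.1%). Nusap1 was 65.3% Nusap1-201 in replicate 1 and 99.3% Nusap1-202 in replicate 2. Aurka was split evenly between Aurka-201 and Aurka-202 in replicate 1, with none on Aurka-203, which led in replicate 2 with 62.0%. In replicate 1 Prc1-202 (32.8%) stood little above Prc1-210 (29.2%), and in replicate 2 Prc1-210 (46.5%) led. Such switches have no replicate within a heart.

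**Figure D4:**
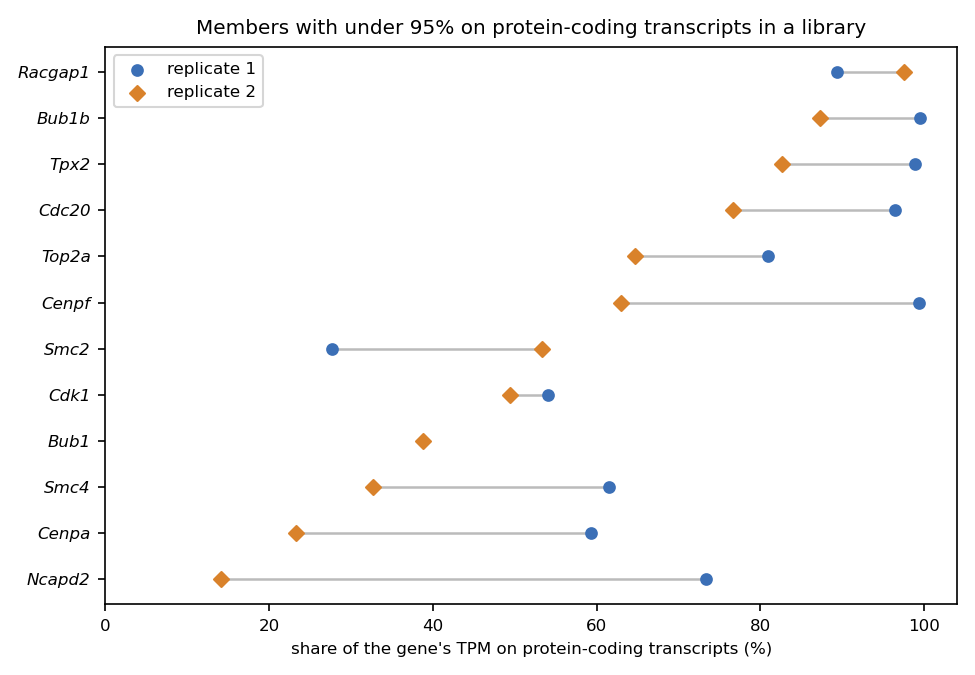
Share of TPM on protein-coding transcripts (%) in replicate 1 (circles) and replicate 2 (diamonds) for the 12 members averaging at least 5 TPM and having a share under 95% in a library. Ncapd2 spans 73.3% to 14.1% and Cenpa 59.3% to 23.3%, Cdk1 is near the middle in both, and Bub1 has a point in replicate 2 alone.

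Reads shared with copies or overlapping genes limit some of these values. Of the 38 members, 9 had 11 annotated pseudogene copies of at least 90% identity over at least 50% of their length, and 6 of the copies held reads. Plk-ps1, at 93.4% identity to Plk1, held 0 counts in replicate 1 and 387 in replicate 2, 21.1% of the Plk1 count there. Copy and gene were thus at or near 0 in the same library. Gm15452, identical to Cks2 over the aligned stretch, held 166 and 300 counts, 8.42% and 6.57% of the Cks2 counts. In TPM this copy stood at 36.4 in replicate 1 and 77.6 in replicate 2. Reads within an identical stretch cannot be told apart, so these shares set no bound on the uncertainty of the Cks2 level. Adding the TPM of the copies to that of their genes left 20 members over 2-fold apart.

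Read genes on the opposite strand overlapped 6 members, and whether reads were counted by strand is not stated in the labels or file headers. They were Exosc9 with Ccna2, Elovl1 with Cdc20, Cdc23 with Kif20a, Lcorl with Ncapg, Rccd1 with Prc1, and Pdzd11 with Kif4. Pdzd11 stood at 110 and 64.0 TPM over an overlap of 832 nt while Kif4 had no count. Cdc23 stood at 16.9 and 47.0 TPM over 2327 nt, higher in replicate 2 where Kif20a was lower.

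Transcript length was only weakly related to the difference among members. Across the 36 genes the Spearman correlation of the log2 ratio with the longest coding transcript was -0.21 (Pearson -0.20), and across 7699 protein-coding genes it was 0.00 (Pearson 0.01). The 10 members under 2000 nt had a median log2 ratio of 0.56 and the 26 of 2000 nt or more -0.30, against 0.10 and -0.04 for protein-coding genes of these lengths. Genes are not independent replicates and all share the same pair of libraries, and the part of length in the role differences was not tested.

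Further cell-cycle genes fell into 6 lists. Of 50 other mitosis genes 25 were read in both libraries, and of the 35 averaging at least 5 TPM 12 were over 2-fold higher in replicate 2 and 11 in replicate 1, with a median of 0.15. Zwint, a kinetochore protein, stood at 137 and 127 TPM, and Pttg1, securin, which holds separase in check, at 114 and 127 TPM. Shcbp1, a midbody protein, had the largest difference of those 35, listed at 62.0 TPM in replicate 1 and 0 in replicate 2. It was named for that difference and does not stand for the direction of other cytokinesis genes.

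Subunits of the anaphase promoting complex, listed with its co-activator Fzr1, gave 13 of 15 genes read in both libraries. Of 14 with a sufficient mean, 2 were higher in each heart by over 2-fold, with a median of 0.15. Anapc13 stood at 152 and 262 TPM and Anapc16 at 144 and 109 TPM. Anapc15 lay far apart with 89.8 and 1.46 TPM, as did Cdc27, named after its values were seen, in the other direction with 0.917 and 52.1 TPM.

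Regulators of mitotic entry gave 5 of 11 genes read in both, 1 higher in replicate 2 and 4 in replicate 1 of 9, and a median of -0.86. Arpp19 and Ensa, inhibitors of the PP2A phosphatase in mitosis, stood at 116 and 189 TPM and at 46.2 and 55.9 TPM. Ppp2r2d, a regulatory subunit of that phosphatase, was listed at 40.8 TPM in replicate 1 and 0 in replicate 2.

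Of the factors known to regulate promoters of this class 5 of 21 were read in both libraries, or 23.8%, near the 28.4% of all protein-coding genes. Of 9 with a sufficient mean 4 were higher in replicate 2 and 1 in replicate 1, with a median of 0.33. Rbbp4, a subunit of the MuvB core that also serves other chromatin complexes, stood at 126 and 158 TPM. Nfyc, a subunit of NF-Y, stood at 113 and 75.9 TPM. Lin37, another MuvB subunit, was listed at 40.2 TPM in replicate 1 and 0 in replicate 2.

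DNA replication genes gave 15 of 34 read in both, and of 23 tested against the fold 9 were higher in replicate 2 and 6 in replicate 1, with a median of 0.56. Rrm2 and Tk1, enzymes of nucleotide supply, were nevertheless higher in replicate 1, at 128 and 52.4 TPM and at 119 and 39.9 TPM. Rfc5, a clamp loader subunit, was listed at 0 in replicate 1 and 52.9 TPM in replicate 2. Members of this list were thus over 2-fold apart in both directions.

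Inhibitors of cyclin-dependent kinases were read for 4 of 7 genes in both libraries, with none over 2-fold higher in replicate 2 and 1 of 4 in replicate 1, and a median of -0.72. Cdkn2d stood at 167 and 88.8 TPM and Cdkn1a, p21, at 45.3 and 31.0 TPM. Cdkn1c, p57, stood at 23.3 and 1.91 TPM. Levels of Cdkn2d were thus of the order of those of the B-type cyclins in the same libraries.

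**Figure D5:**
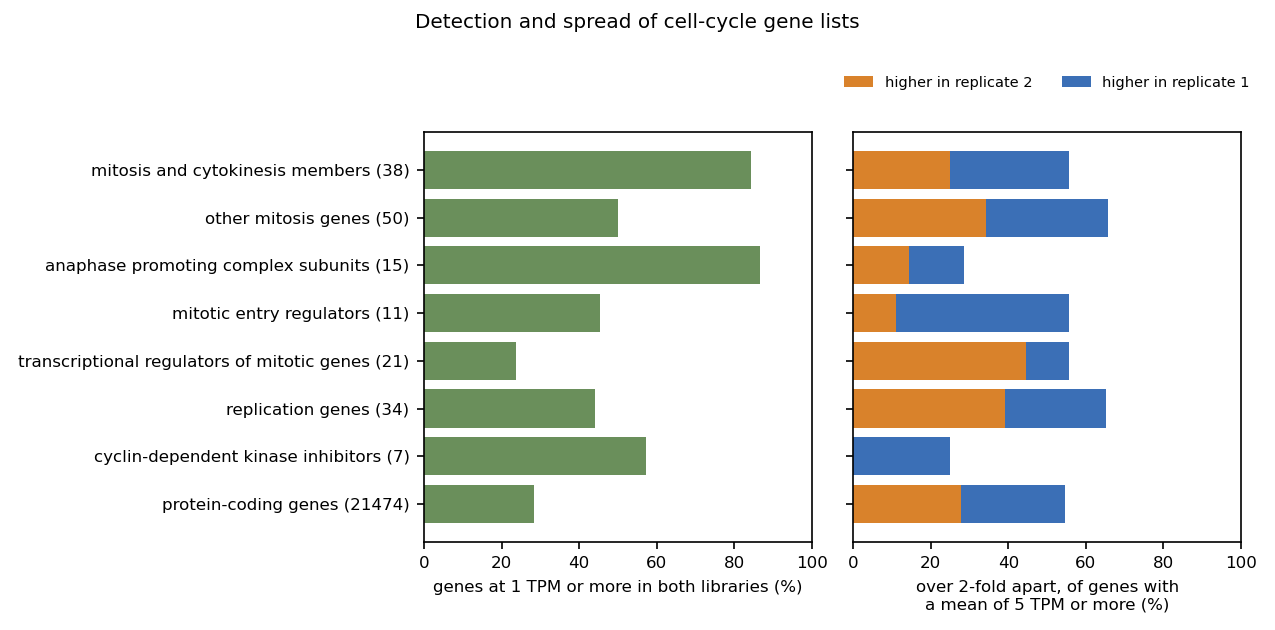
Share of genes at 1 TPM or more in both libraries (left, %) and share over 2-fold apart among genes averaging at least 5 TPM (right, %, split by the library in which they were higher) for the mitosis and cytokinesis genes, 6 further cell-cycle lists and all protein-coding genes, with gene numbers in brackets. The 38 genes were read in both at 84.2% against 28.4% of protein-coding genes, while their share over 2-fold apart, 55.6%, lay beside the 54.5% of protein-coding genes.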

How the data were processed

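RNA was sequenced from 2 newborn mouse hearts, 1 library each. The authors deposited gene and transcript tables that hold, per the file headers, expected counts, posterior mean counts, TPM and, for transcripts, the percent of the gene's level. The posterior SD of a count, deposited beside it, is a score with no fixed range. Per the labels the protocol is a Smart-seq one and the assembly mm10. Notes deposited with the tables name the GENCODE M4 annotation. For the aligner and the quantifier, names and versions were not given in the sources used here.

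The members and all lists were chosen with earlier results of these data known. TPM was scaled anew to 1000000 over 43346 mouse genes, without 96 spike-ins (2.40% and 1.27% of expected counts) and 26248 rows under a bare number. Names came from GENCODE M21, which matched 42462 genes and left 884 unmatched. Expected counts were rounded to whole numbers for the edgeR (4.0.16) and DESeq2 (1.42.0) scalings. Ratios are differences of log2(TPM + 1) for genes averaging at least 5 TPM, which understates changes of low genes. Copies were sought with minimap2 (2.31-r1302). Other steps used Python 3.11.15 and R 4.3.3. The fold count, by CPM, and the scalings were run on simulated counts with planted changes and counting error only. That run does not cover the larger spread between these libraries.

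No test between groups was made, since there is 1 group. Intervals of count ratios are exact (Clopper-Pearson) at 95% and, without molecular identifiers, cover counting error only. Alternatives were another read minimum, pseudocount, filter, unit or scaling, each library alone, coding transcripts only and pseudogene copies added. All members are named, and of each other list the pair with the highest mean and the gene with the largest difference.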

Additional observations from a re-analysis of the deposited data

How the results depend on the processing

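Of 37 values recomputed under alternatives, 31 moved by less than the set limits and 6 moved further. The limit for the summed level was its SD over both libraries, which a library alone could not pass. Those values are therefore no check of the sum. Members read in a library alone are also another count than members read in both. With exactly 0 counts as the limit, 2 members in place of 4 were missed by one library. With a mean of 20 TPM or more, 13 in place of 20 members were over 2-fold apart and their median log2 ratio was 0.23. That median was 0.0048 over the 36 members, -0.088 with DESeq2 size factors, which shifted all genes by -0.11, and -0.26 on protein-coding transcripts alone. Single over 2-fold calls changed for Aurka, with edgeR and DESeq2 scaling, and for Cenpa, Ncapd2 and Smc4 (-0.93 to -1.80), on coding transcripts. Each of the filters tests fewer genes, and otherwise the cause was not tested. The summed level, 2772 TPM on average, was 3527 in CPM, where long genes weigh more. Taking each library alone gave 34 to 35 members read and sums of 2498 to 3045 TPM. Counts of missed genes, ratios and leading transcripts need both libraries and have no value with one left out. No paired analysis was possible because the labels give 1 group. The coding-transcript, pseudogene and cytokinesis alternatives were chosen after seeing the data. For the missed genes, 0 counts allow up to 3 by counting alone, and why they were missed was not tested.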
